A study of Caenorhabditis elegans with 20 samples.

Results

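The genes examined here were nlp-39 (C54C8.9), its neighbour C54C8.12, and the 6 genes of the nlp-29 cluster, nlp-27 (B0213.2), nlp-28 (B0213.3), nlp-29 (B0213.4), nlp-30 (B0213.5), nlp-31 (B0213.6) and nlp-34 (B0213.17). These were 8 genes of 21383 in the count table. nlp-39 and C54C8.12 were selected on their measured rise between the L4 larva and Day 13 of adulthood, so their change with age is described and not tested. The 6 cluster genes were taken by family and position on chromosome V.

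The nlp-29 cluster encodes short secreted antimicrobial peptides of the worm epidermis, the syncytial layer that makes the cuticle. Infection by the fungus Drechmeria coniospora and wounding of the cuticle switch several of these genes on. The signal runs from the receptor DCAR-1 through the G protein GPA-12 and the TIR-1, NSY-1, SEK-1 and PMK-1 p38 kinase cascade to SNF-12 and STA-2, with the GATA factor ELT-3 acting in the epidermis. NLP-31 peptide is antimicrobial in vitro, and NLP-29 peptide also acts on neurons through the receptor NPR-12. ELT-2, the factor raised in this study, is the GATA factor of the intestine.

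The study asked whether raising elt-2 changes the transcriptome of old worms. Control worms were strain SD1965, with the unc-119(+) marker alone, and overexpressing worms were strain SD1963, with an extrachromosomal multi-copy elt-2:gfp array driven by elt-2's own upstream DNA together with the same marker. Both lines had the unc-119(ed3);rde-1(ne300) background and each was 1 transgenic line, so line and transgene cannot be told apart. Whole worms of each strain were taken as L4 larvae or on Day 13 of adulthood. There were 5 libraries a group (letters A to E), each from a population of about 10000 animals. Day 13 worms had been on plates with FUDR, which blocks progeny, from Day 1 of adulthood, and L4 worms had not. Age, the passage from larva to adult and FUDR therefore cannot be told apart.

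Reads came from the 3′ ends of polyadenylated RNA (3SEQ), so a transcript's count does not scale with its length and levels of different genes can be set side by side. Levels are given as CPM, each library's counts scaled to a common total with TMM factors over the 20 libraries. Library totals ran from 10.7 M to 42.3 M counts, and 3 counts, taken as the floor, were worth 0.0970 to 0.177 CPM. The libraries formed 2 sets in many genes, letters A to C (12 libraries) and letters D and E (8 libraries), and the labels do not say what the letters share. Values are therefore given for both sets where they differ. elt-2 was at 0.958 to 1.34 CPM in control and 5.37 to 7.41 in overexpressing worms at Day 13, without overlap, and the groups overlapped at L4, with 0.674 to 3.49 against 3.15 to 10.2. unc-119 had 0 to 32 counts in control libraries and 86 to 547 in overexpressing libraries, although both lines are described as carrying it.

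In the WBcel235 annotation, nlp-39 lies on chromosome I at 12461656 to 12461895 on the plus strand, and C54C8.12 lies at 12456926 to 12457174 on the same strand, with 4481 bases between them. Each is a protein-coding gene of 1 exon. The cluster spans 10946 bases of chromosome V. From left to right it holds nlp-34 (3978825 to 3979134, minus strand), nlp-31 (3980055 to 3980622), nlp-30 (3981980 to 3982741), nlp-29 (3984425 to 3984847), nlp-28 (3987900 to 3988316) and nlp-27 (3989378 to 3989770), the last 5 on the plus strand. Each of these has 2 exons. No other annotated gene overlaps any of the 8. The 6 cluster genes are related in sequence. The study's methods took uniquely mapped reads as the library total, so reads that fit several copies equally well were not in that total, and counts of similar copies are uncertain to that extent.

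nlp-39 was close to silent in larvae and among the most abundant transcripts in old worms. In control L4 worms it had 2 counts in each of libraries A, B and C and 0 in D and E. At Day 13 the control libraries A to E held 329, 301, 267, 95.6 and 140 CPM, from 2956 to 9621 counts. Every Day 13 library was above every L4 library, as the choice of the gene fixed. D and E were the lowest Day 13 libraries after TMM scaling only. Without it E was the highest, at 289 CPM, with A at 284 and D at 211. The ratio was at least 667-fold in D and at least 790-fold in E, set against a floor of 3 counts per library. Pooled over A to C it was 4036-fold (95% interval 1854 to 10999, exact binomial, counting error only, from 6 L4 counts). By count, nlp-39 ranked between 237 and 363 among the 21383 genes in the control Day 13 libraries.

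Overexpressing worms gave the same picture for nlp-39. L4 counts were 4, 7, 3, 0 and 0 in A to E, and Day 13 levels were 144, 229, 299.9, 169.8 and 157 CPM. The ratio was at least 1501-fold in D and at least 1161-fold in E, and 1190-fold (709 to 2177) over A to C pooled. Mean Day 13 levels were 227 ± 103 CPM in control and 199.96 ± 64.6 in overexpressing worms (SD, n = 5), in overlapping ranges. Without TMM scaling the spread was smaller, 251 ± 34.01 and 233 ± 32.8 plain CPM (SD, n = 5); control Day 13 D and E had the highest TMM factors, up to 2.21.

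C54C8.12, a predicted gene near nlp-39, was picked for the same rise. Control L4 libraries held 0, 4, 4, 0 and 0 counts, and control Day 13 libraries held 492, 407, 411, 105 and 159.9 CPM. The overexpressing L4 libraries held 7, 11, 3, 0 and 0 counts, and the Day 13 libraries held 384, 671, 369.7, 186 and 161 CPM. All Day 13 libraries were far above all L4 libraries in both strains, as the choice of the gene fixed. D and E were again the lowest at Day 13 after TMM scaling. In plain CPM control Day 13 E (329.9) lay above B (327.6). Against the floor the rise was at least 732-fold in control D and at least 901-fold in control E, and at least 1644-fold and 1190-fold in overexpressing D and E. Over A to C it was 4425-fold (2245 to 10250) in control and 1698-fold (1110 to 2743) in overexpressing worms. Counts of C54C8.12 stood at 1.03 to 1.54 times those of nlp-39 in 8 of the 10 Day 13 libraries and at 2.67 and 2.93 times in overexpressing A and B.

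**Figure D1:**
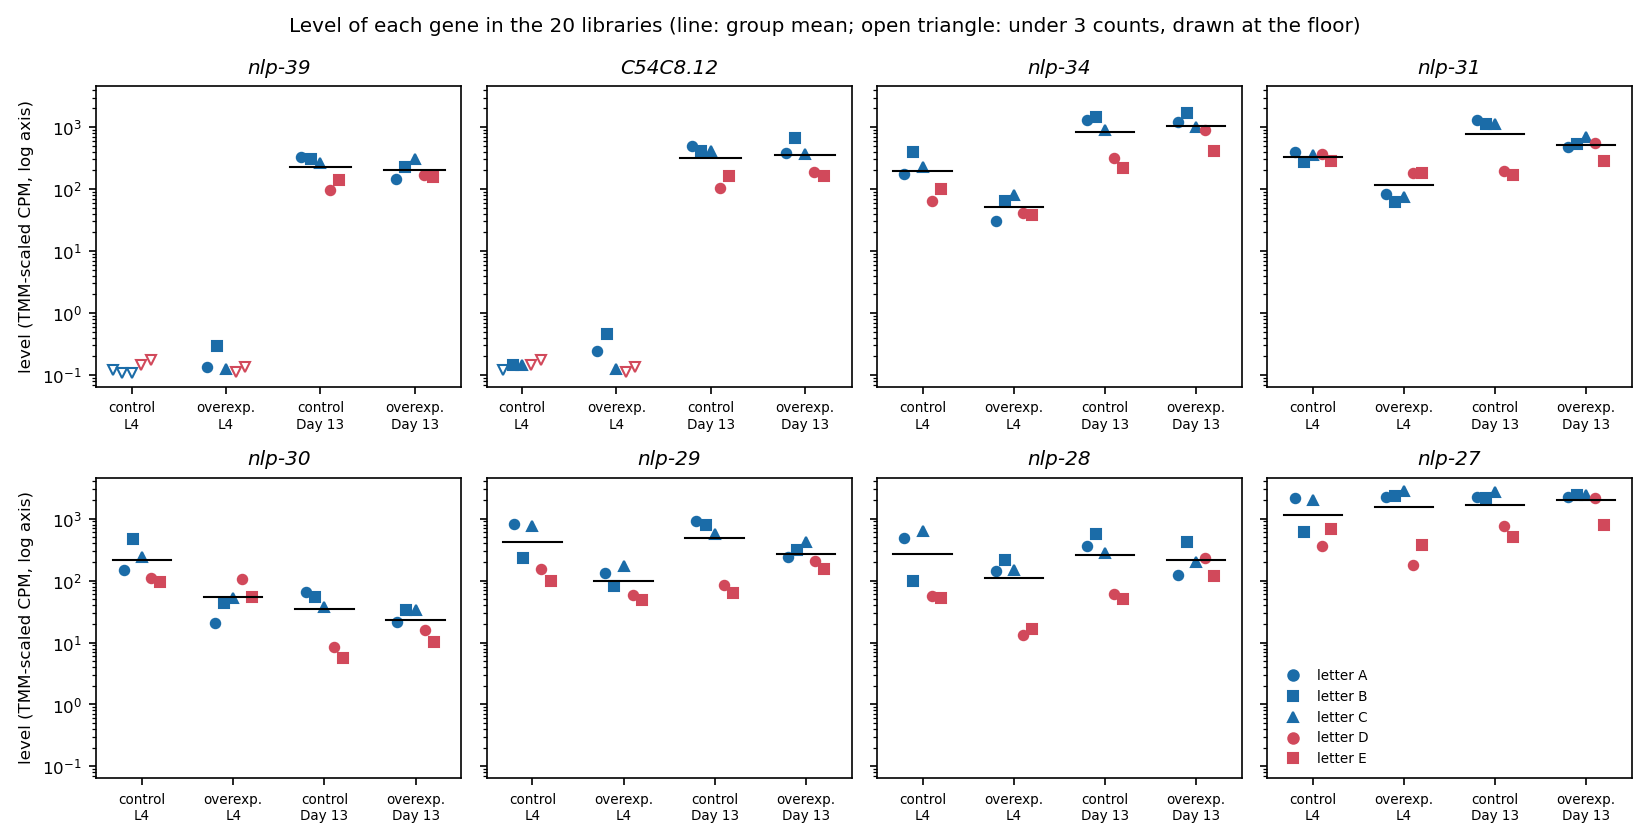
Level of each of the 8 genes in the 20 libraries (TMM-scaled CPM, log axis), by group on the x axis, with letters A to C in blue and D and E in red, the group mean as a line, and open triangles at the floor for libraries with under 3 counts. nlp-39 and C54C8.12 move from at most 0.461 CPM at L4 to at least 95.6 CPM at Day 13, while the 6 cluster genes are present in every group.

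The cluster genes, in contrast, were all expressed in larvae. nlp-27 was the most abundant of them in 18 of the 20 libraries, with means of 1161 ± 849 CPM in control L4, 1557 ± 1195 in overexpressing L4, 1651 ± 959.7 in control Day 13 and 1989 ± 672 in overexpressing Day 13 worms (SD, n = 5). The sets of letters lay far apart in overexpressing L4 worms, with 2194 to 2769 CPM in A to C and 175 to 371 in D and E. In control Day 13 worms they were at 2114 to 2685 against 512 to 752. Without TMM scaling control Day 13 D, at 1660 CPM, was close to B, at 1700. At control L4 the sets overlapped, with 601 to 2145 in A to C and 365 to 676 in D and E. At overexpressing Day 13, D (2147) was close to A to C (2234 to 2395), and E was at 802. nlp-28 was split between the sets at L4, with 144 to 217 CPM in overexpressing A to C against 13.1 to 16.6 in D and E. At control L4 it was at 98.0 to 635 against 52.1 to 55.6. nlp-27 made up a median of 47.8% of the summed cluster signal at control L4 and 48.1% at control Day 13. All 6 passed the filter on low counts in every comparison, whereas nlp-39 and C54C8.12 did not pass it in the L4 comparison.

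Between L4 and Day 13, 2 of the 6 cluster genes changed in control worms, nlp-34 upward and nlp-30 downward, and 4 did not pass the test. Among all genes tested, 21.9% were called higher and 23.7% lower at the 10% false discovery rate, so calls in 1 of 6 genes each way are near the background. nlp-34 was at 176, 399.8, 230.1, 64.8 and 102 CPM in control L4 A to E and at 1294, 1444, 892, 314 and 218 CPM at Day 13. It was higher at Day 13 within each of the 5 letters, as were 33.5% of all genes tested, though the 2 lowest Day 13 libraries (D and E) lay below the highest L4 library (B). This overlap depended on the TMM scaling. In plain CPM Day 13 D and E were at 695 and 449, above L4 B at 273, and the groups did not overlap. The log2 change was 1.77 ± 0.71 (SE, n = 5 a group, adjusted p = 0.0686, edgeR quasi-likelihood test with Benjamini-Hochberg adjustment).

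nlp-30 went the other way. It was at 148, 474, 241, 111 and 93.4 CPM at control L4 and at 66.5, 54.4, 37.4, 8.35 and 5.73 CPM at control Day 13. Every Day 13 library was below every L4 library, as for 11.4% of all genes tested, and D and E were the lowest. The log2 change was -2.97 ± 0.82 (SE, adjusted p = 0.0151, edgeR quasi-likelihood test). The call on nlp-30 was kept in all 10 fits that left out 1 library. That on nlp-34 was lost without control L4 D (log2 change 1.52, adjusted p = 0.12), control L4 E (1.60, 0.132), control Day 13 A (1.65, 0.132) or control Day 13 B (1.48, 0.156), again by edgeR. These fits did not pair the letters. Same-letter control libraries deviated together between the ages, with a lowest correlation of 0.410. With the letter as a block, nlp-34 had 1.78 ± 0.38 and nlp-30 -3.20 ± 0.48 (SE, adjusted p = 0.00519 and 0.000914, edgeR). In that fit 2568 of 9063 genes were called higher and 2712 lower.

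nlp-31 differed between the 2 sets of letters. Its control level was 394, 273, 354, 374 and 279 CPM at L4 and 1286, 1137, 1135, 195 and 168 CPM at Day 13. After TMM scaling A to C were all higher at Day 13 than any L4 library, and D and E were lower than any L4 library. Without TMM scaling D went from 419 to 431 CPM and E from 203 to 347 CPM. The fall in D and E thus depended on the scaling. Over all 5 letters the log2 change was 0.99 ± 0.60 (SE, adjusted p = 0.218, edgeR quasi-likelihood test). With A to C alone it was 1.46 (adjusted p = 0.000563, edgeR, beside 25.8% of all genes called higher there), and with D and E alone -0.86 (adjusted p = 0.0931, edgeR, beside 28.1% called lower). nlp-29, nlp-28 and nlp-27 gave log2 changes of -0.05 ± 0.84, -0.28 ± 0.90 and 0.24 ± 0.64 (SE), all short of the threshold. nlp-29 itself, the best studied gene of the cluster, ran from 98.7 to 832 CPM (median 232) at control L4 and from 63.2 to 923 CPM (median 561) at control Day 13, ranges that overlap almost wholly.

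In overexpressing worms 4 of the 6 cluster genes passed the test, nlp-34, nlp-31 and nlp-29 upward and nlp-30 downward, beside 25.8% of all genes called higher and 23.4% called lower. nlp-34 was at 30.2, 63.8, 81.6, 40.4 and 38.5 CPM at L4 and at 1229, 1665, 1021, 897 and 412 CPM at Day 13. The groups did not overlap, as for the 16% of all genes tested that were higher without overlap, and the lowest Day 13 library was E. Its log2 change was 4.31 ± 0.49 (SE, n = 5 a group, adjusted p = 5.48e-05, edgeR quasi-likelihood test).

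For nlp-31 the overexpressing L4 levels were 82.5, 62.5, 73.2, 183 and 179 CPM, and the Day 13 levels were 484, 525, 701, 556 and 279 CPM. Here D and E were the highest larval libraries. All 5 letters were higher at Day 13 (33.1% of all genes tested), without overlap of the groups (16% of all genes tested). The log2 change was 2.05 ± 0.46 (SE, adjusted p = 0.00404, edgeR quasi-likelihood test). nlp-29 was at 132, 82.3, 169, 58.8 and 48.5 CPM at L4 and at 244, 311, 418, 204 and 154 CPM at Day 13. All 5 letters were higher at Day 13 and the groups overlapped only through Day 13 E, which lay below L4 C. In plain CPM nlp-29 was at 260 in Day 13 E, above the 149 of L4 C. Its log2 change was 1.40 ± 0.44 (SE, adjusted p = 0.0264, edgeR quasi-likelihood test), and the call was lost without overexpressing L4 E (1.05, adjusted p = 0.103).

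nlp-30 was at 21.01, 42.6, 51.3, 106 and 53.7 CPM in overexpressing L4 worms and at 21.2, 33.6, 32.99, 15.9 and 10.3 CPM at Day 13. The fall lay in D and E, and A to C overlapped between the ages. Over all letters the log2 change was -1.35 ± 0.51 (SE, adjusted p = 0.0517, edgeR quasi-likelihood test). With A to C alone it was -0.60 (adjusted p = 0.282, edgeR), and the call was also lost without overexpressing L4 D (-0.96, 0.137), Day 13 A (-1.26, 0.108) or Day 13 D (-1.19, 0.109). nlp-28 and nlp-27 had log2 changes of 0.99 ± 0.73 and 0.33 ± 0.66 (SE, adjusted p = 0.296 and 0.713, edgeR). In D and E alone both were called higher at Day 13, nlp-28 by 3.596 and nlp-27 by 2.47 on the log2 scale (adjusted p = 8.37e-05 and 0.00329, edgeR), beside 27.1% of all genes called higher there.

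**Figure D2:**
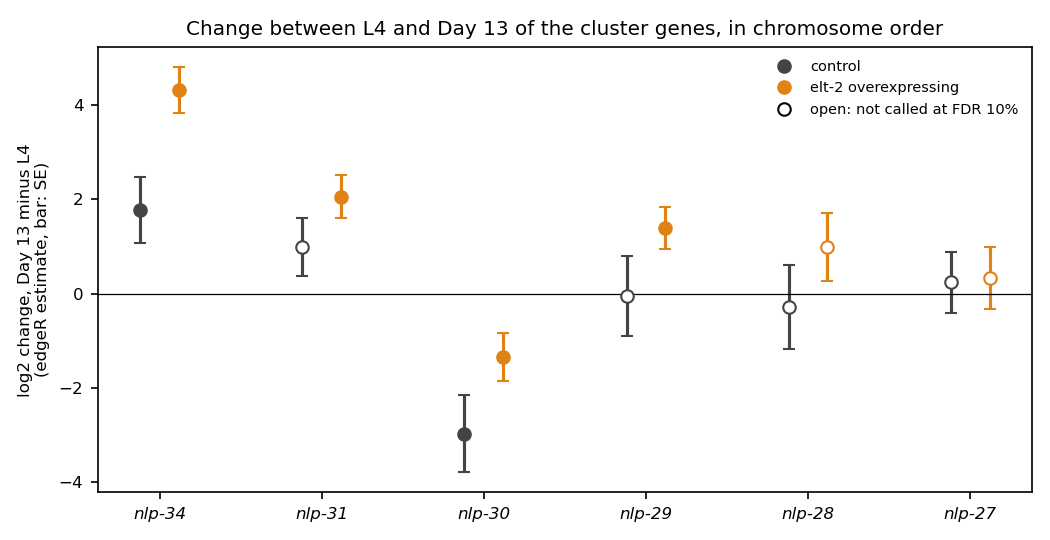
log2 change from L4 to Day 13 of the 6 cluster genes in control (grey) and overexpressing (orange) worms, in chromosome order, as the edgeR estimate with its standard error; filled points passed the 10% false discovery rate. nlp-34 lies above 0 in both strains (1.77 and 4.31) and nlp-30 below 0 in both (-2.97 and -1.35), with the other genes between them.

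Whether the change with age differed between strains was tested directly as an interaction over the 20 libraries. None of the 6 cluster genes passed, and neither did any of the 10545 genes tested (0% called, with 266 at an unadjusted p under 0.05, and 0 called by DESeq2 too). The largest difference among the 8 was that of nlp-34, with an estimated age change 2.26 ± 0.80 greater on the log2 scale in overexpressing worms (SE, unadjusted p = 0.0100, adjusted p = 1, edgeR quasi-likelihood test). For nlp-39 and C54C8.12 the estimates were -1.31 ± 1.04 and -1.17 ± 1.25 (SE), and they rest on 0 to 11 counts per L4 library. Both genes were picked on their change with age, so these estimates are a description and not a test.

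nlp-34 and nlp-30, which lie within a few kilobases of each other, diverged with age, and their ratio inside each library needs no scaling. It does not say which of the 2 moved. The count of nlp-34 divided by that of nlp-30 was 1.19, 0.843, 0.956, 0.581 and 1.09 in control L4 A to E, and 19.5, 26.5, 23.8, 37.7 and 38.04 in control Day 13 A to E. In overexpressing worms the ratio was 1.44, 1.497, 1.59, 0.380 and 0.717 at L4 and 58.0, 49.6, 30.96, 56.6 and 39.9 at Day 13. Every Day 13 ratio lay far above every L4 ratio in both strains and in both sets of letters, although levels of the 2 genes differed widely between the sets. This ratio was chosen after the 2 genes' directions were known and is given as a description. The share of nlp-30 in the summed cluster signal went from a median of 7.18% to 0.670% in control worms, while that of nlp-34 went from 5.76% to 21.4%.

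**Figure D3:**
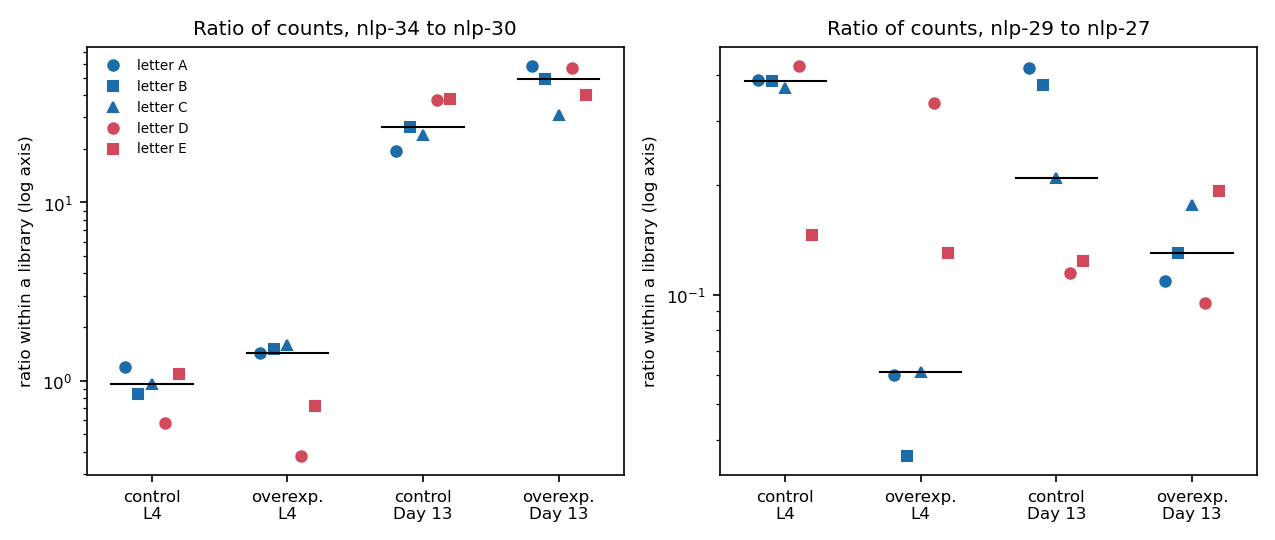
Ratio of counts within each library (log axis) for nlp-34 to nlp-30 (left) and nlp-29 to nlp-27 (right), by group, with letters A to C in blue, D and E in red and the median as a line. The nlp-34 to nlp-30 ratio lies between 0.380 and 1.59 in the 10 L4 libraries and between 19.5 and 58.0 in the 10 Day 13 libraries.

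At L4, nlp-34, nlp-31, nlp-30 and nlp-29 stood lower in the overexpressing than in the control library of all 5 letters, but none passed the test over all genes. These were 4 of 6 genes, beside 10.9% of all genes tested. From the levels above, nlp-31 separated the groups completely, with 273 to 394 CPM in control and 62.5 to 183 CPM in overexpressing worms, 1 of 6 genes beside 1.41% of all genes. The other 3 overlapped, nlp-34 through control D, nlp-30 through overexpressing D and nlp-29 through control D and E. Control L4 nlp-29 was at 832, 232, 747, 155 and 98.7 CPM in A to E against the 48.5 to 169 CPM of overexpressing worms.

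The log2 differences at L4, overexpressing minus control, were -2.01 ± 0.56 for nlp-34, -1.57 ± 0.42 for nlp-31, -2.03 ± 0.60 for nlp-30 and -2.14 ± 0.68 for nlp-29 (SE, n = 5 a group). None passed the 10% false discovery rate, with adjusted p from 0.335 to 0.383 and unadjusted p from 0.00304 to 0.00894 (edgeR quasi-likelihood test), so 0 of 6 genes were called beside 0.0345% of all genes, where 911 had an unadjusted p under 0.05 and DESeq2 called 465, 4 of the 6 among them. Exact two-sided permutation tests of each gene on its own gave p = 0.0159 for nlp-34, 0.00794 for nlp-31, 0.0159 for nlp-30 and 0.0397 for nlp-29, where 0.00794 is the smallest p that the splits of 10 libraries can give. These are 4 of 14 such tests over both ages and were not adjusted. nlp-28 (-1.35 ± 0.96, exact permutation p = 0.302) and nlp-27 (0.36 ± 0.77, exact permutation p = 0.873) did not stand apart from their spread.

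Same-letter libraries deviated together at L4, with correlations of 0.514 to 0.797 across genes. With the letter as a block, 3 of the 6 genes were called lower beside 1.63% of all genes tested, namely nlp-34 (-1.80, adjusted p = 0.0894), nlp-31 (-1.71, 0.0916) and nlp-29 (-1.78, 0.0724), by the edgeR quasi-likelihood test. nlp-30 then had -1.94 and an adjusted p of 0.141 (edgeR). Within letters A to C alone all 4 were called lower, with log2 differences from -2.28 to -2.99, but so were 17.2% of all genes. Within D and E alone none of the 6 was called.

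**Figure D4:**
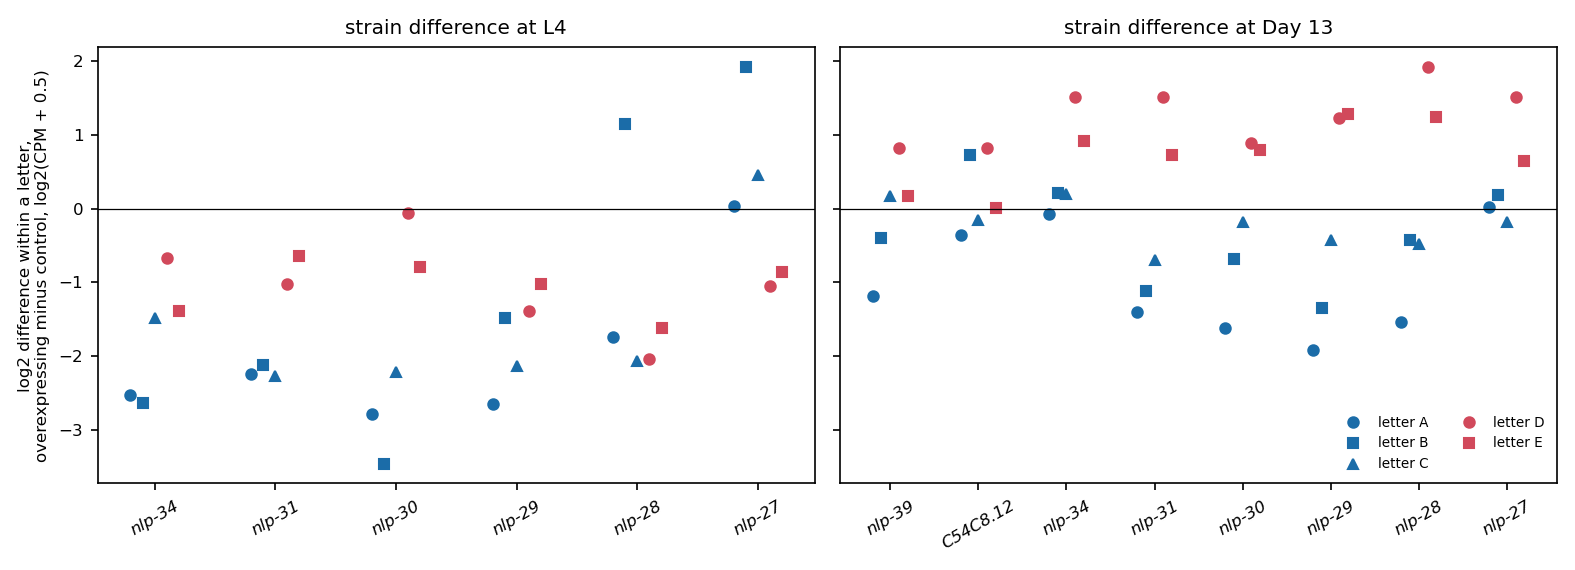
log2 difference in level between the overexpressing and the control library of the same letter, on the log2(CPM + 0.5) scale, at L4 (left) and Day 13 (right), with letters A to C in blue and D and E in red. At L4 nlp-34, nlp-31, nlp-30 and nlp-29 are below 0 in all 5 letters, while at Day 13 the letters D and E lie above 0 and most of A to C at or below it.

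In A to C the difference was uneven along the cluster. The count of nlp-29 per count of nlp-27 was 0.388, 0.386, 0.370, 0.423 and 0.146 in control L4 A to E and 0.0603, 0.0362, 0.0612, 0.336 and 0.131 in overexpressing L4 A to E. It was lower in the overexpressing library of each letter, by a mean log2 difference of -2.90 in A to C and -0.25 in D and E. For nlp-31 per nlp-27 the ratio was lower in overexpressing A to C only, with 0.0264 to 0.0376 against 0.175 to 0.455 in control, and in D and E it was 1.04 and 0.481 against 1.02 and 0.412. nlp-27 likewise made up 82.9% to 84.3% of the summed cluster signal in overexpressing L4 A to C and 30.4% to 52.5% in D and E, beside 28.9% to 52.0% in the 5 control L4 libraries.

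Sums of cell type markers moved with the letters at L4 as well, but a few genes carried each sum. The 8 intestine markers summed to 3051 to 3665 CPM in control against 1368 to 1677 in overexpressing A to C, and to 4491 to 5804 against 3157 to 5747 in D and E. asp-1, a protease gene, and mtl-2, a metallothionein gene, made up at least 88.1% of the sum in every L4 library. The other 6 summed to 40.4 to 67.2 against 45.2 to 85.2 in A to C and to 511 to 637 against 365 to 683 in D and E. act-5 led these 6, with L4 means of 236 CPM in control and 223 in overexpressing worms. ifb-2 came next, at 11.2 and 11.7. Of the 9 neuron markers, summing to 65.8 to 69.1 against 29.5 to 38.3 in A to C and to 113 to 121 against 80.5 to 111 in D and E, the 8 other than egl-21 gave 11.8 to 15.5 against 12.4 to 16.7 and 42.5 to 52.2 against 41.99 to 49.0.

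The 11 epidermis markers summed to 5130 to 8287 CPM in control and 7448 to 13348 in overexpressing A to C, and to 845 to 1065 against 783 to 1096 in D and E. The collagen genes col-19 and rol-6 made up at least 83.1% of this in every L4 library. The other 9 went the other way in A to C, with 25.4 to 30.1 in control against 12.7 to 18.5 in overexpressing worms, and were at 52.9 to 114 against 100.1 to 132 in D and E. The genes set aside were picked after their levels were seen. No marker of the 3 lists was at 0 throughout a group, and none was called between the strains at L4. The part of these shifts in the L4 result was not tested, and in whole worms fewer cells of a type and less RNA per cell cannot be told apart.

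At Day 13 none of the 8 genes differed between strains by the test, beside 0.0117% of all genes called (1 of 8544, with 1125 at an unadjusted p under 0.05 and 740 called by DESeq2). The log2 differences, overexpressing minus control, were -0.20 ± 0.46 for nlp-39, 0.13 ± 0.54 for C54C8.12, 0.28 ± 0.56 for nlp-34, -0.65 ± 0.59 for nlp-31, -0.63 ± 0.66 for nlp-30, -0.89 ± 0.69 for nlp-29, -0.30 ± 0.67 for nlp-28 and 0.23 ± 0.51 for nlp-27 (SE, n = 5 a group, adjusted p from 0.657 to 0.962, edgeR quasi-likelihood test). Exact permutation tests of single genes gave p from 0.389 to 0.849.

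The 2 sets of letters disagreed here. In A to C, nlp-29 was at 923, 794 and 561 CPM in control against 244, 311 and 418 CPM in overexpressing worms, and in D and E at 86.3 and 63.2 against 204 and 154 CPM. Each set was without overlap, in opposite directions. Within A to C alone nlp-29 (-1.31, adjusted p = 0.016), nlp-31 (-1.14, 0.0148) and nlp-30 (-0.94, 0.0614) were called lower in overexpressing worms by edgeR, beside 23.2% of all genes. Within D and E alone the same 3 genes had log2 differences of 1.21, 1.15 and 0.85, none called. nlp-28 was likewise at 276 to 559 CPM in control A to C and 125 to 415 in overexpressing A to C, against 50.0 to 61.0 and 119.2 to 233 in D and E. Marker levels moved with the letters here too. The 9 epidermis markers other than col-19 and rol-6 summed to 56.7 to 74.7 CPM in control and 16.2 to 18.2 in overexpressing A to C. In D and E they summed to 12.6 to 16.4 and 15.2 to 16.6. lin-26 made up most of these sums, with means of 42.1 CPM in control and 13.9 in overexpressing worms. The next highest means were 0.719 (nekl-2) in control and 0.640 (nhr-23) in overexpressing worms. The 8 intestine markers summed to 2187 to 2703 in control and 231 to 1103 in overexpressing A to C, against 356 to 515 and 639 to 796 in D and E, and asp-1 and mtl-2 made up at least 92.4% of that. The part of these shifts in the result was not tested.

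Relatives of the cluster elsewhere in the genome did not share one direction with age. Of 5 further epidermal nlp genes, 4 fell and 1 rose in control worms (median log2 change -4.44, all genes 0.12), and 3 fell and 1 rose in overexpressing worms (-2.91, all genes 0.22). Over all genes 23.7% and 23.4% were called lower. nlp-24 went from 1850 ± 708 to 25.7 ± 23.1 CPM in control worms (SD, n = 5, log2 change -6.44 ± 0.93 SE, adjusted p = 0.000354, edgeR). In control worms nlp-33 had a log2 change of -4.84 ± 0.81 and nlp-26 of -4.44 ± 0.82 (SE, adjusted p = 0.000886 and 0.00174, edgeR). nlp-32 was the one that rose, by 1.42 ± 0.57 (SE) in control worms. It stayed under 1 CPM, with control means of 0.232 at L4 and 0.758 at Day 13.

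The caenacins (cnc), a second family of epidermal antimicrobial peptides, went both ways as well. Of 7 tested in control worms 4 rose and 3 fell (median 2.46), and of 8 tested in overexpressing worms 5 rose and 1 fell (median 4.53), beside 21.9% higher and 23.7% lower over all genes in control and 25.8% and 23.4% in overexpressing worms. cnc-2, which is switched on by infection through the TGF-β ligand DBL-1, went from 15.8 to 166 CPM in control worms (log2 change 3.13 ± 0.83 SE, adjusted p = 0.0125, edgeR). cnc-6 rose by 6.37 ± 1.14, cnc-7 by 4.08 ± 0.91 and cnc-4 by 2.46 ± 0.86 on the log2 scale. The 3 that fell were cnc-8 (-2.28 ± 0.66), cnc-3 (-1.41 ± 0.62) and cnc-10 (-1.09 ± 0.45). No nlp or cnc relative was called between strains at either age. At L4 their estimates were mostly lower in overexpressing worms, as in the cluster. The median log2 difference was -1.64 for the 6 cnc and -1.29 for the 4 nlp genes tested (all genes 0.05). cnc-4 was at -2.55 ± 0.71 and nlp-25 at -2.49 ± 0.53 (SE), while nlp-26 was at 0.17 ± 0.66. The lower L4 estimates were thus not confined to the cluster.

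**Figure D5:**
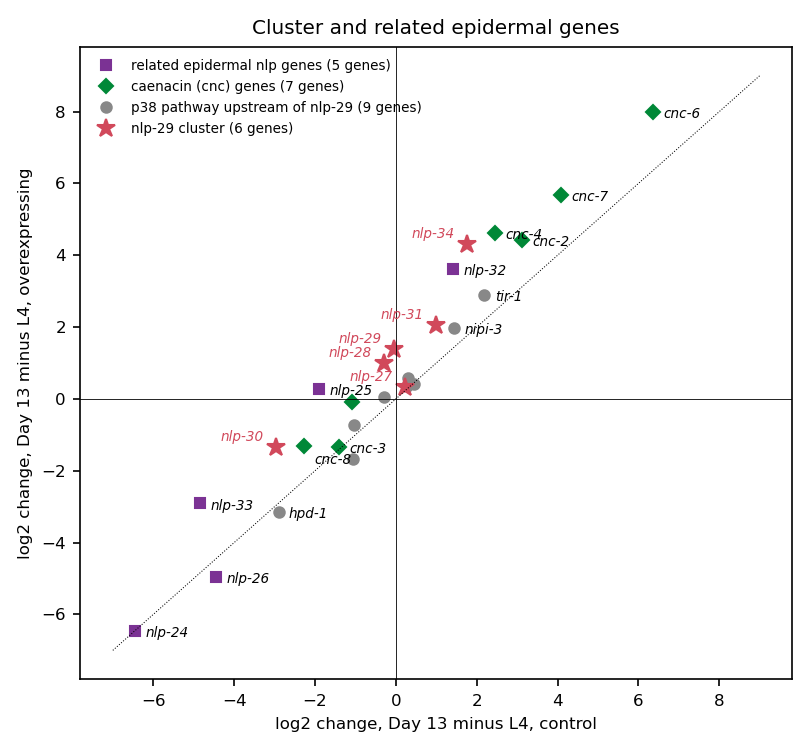
log2 change from L4 to Day 13 in control (x axis) and overexpressing (y axis) worms for the nlp-29 cluster (stars) and genes of 3 related lists that were tested in both strains; the dotted line marks equal change. cnc-6, cnc-7, cnc-2 and cnc-4 lie in the upper right with nlp-34, and nlp-24, nlp-26 and nlp-33 in the lower left with nlp-30.

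The genes that carry the infection signal to the cluster were nearly all low and mostly without a call. Of 15 listed, 11 were tested in control worms, where 2 rose and 2 fell (median -0.29, all genes 0.12), and 9 in overexpressing worms, again with 2 each way. These shares are near or below the 21.9% to 25.8% called each way over all genes. tir-1, the adaptor at the head of the p38 cascade, rose by 2.19 ± 0.35 on the log2 scale in control and 2.89 ± 0.36 in overexpressing worms (SE, adjusted p = 0.000722 and 9.36e-05, edgeR). nipi-3, a Tribbles pseudokinase that acts upstream of the cascade, rose by 1.43 ± 0.44 and 1.98 ± 0.48. hpd-1, an enzyme of tyrosine breakdown whose loss raises the DCAR-1 ligand, had changes of -2.90 ± 0.36 and -3.15 ± 0.41. rack-1, which encodes a ribosome-bound scaffold protein, was called lower in control worms (-1.04 ± 0.45) and elt-3 in overexpressing worms (-1.68 ± 0.54). dcar-1, nsy-1 and sek-1 were tested and not called, and pmk-1, at 0.0198 to 0.0656 CPM on average, and sta-2 were too low to test. npr-12, the receptor gene for NLP-29, had a mean of at most 0.00872 CPM in any group, under the floor.

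Several markers of the epidermis fell with age. Of 8 tested in control worms, 4 fell and 1 (lin-26) rose, and of 8 in overexpressing worms 4 fell and 2 (lin-26 and elt-1) rose, beside 23.7% and 23.4% of all genes called lower. The 11 summed to 845 to 8287 CPM in control L4 and 285 to 1226 in control Day 13 worms, and to 783 to 13348 against 189 to 811 in overexpressing worms, mostly col-19 and rol-6, cuticle collagen genes whose use follows the moults. The other 9 summed to 25.4 to 30.1 at L4 against 56.7 to 74.7 at Day 13 in control A to C. In control D and E they summed to 52.9 to 114 against 12.6 to 16.4, the opposite direction. In overexpressing worms they summed to 12.7 to 18.5 against 16.2 to 18.2 in A to C. In overexpressing D and E they summed to 100.1 to 132 against 15.2 to 16.6. At Day 13 these sums were mostly lin-26, with means of 42.1 CPM in control and 13.9 in overexpressing worms. At L4 the highest mean of the 9 was that of dpy-7, also a collagen gene, at 31.5 CPM in control and 38.3 in overexpressing worms. lin-26 came next there, at 10.7 and 7.70. dpy-7 was at 0.183 and 0.220 at Day 13, so by these means different genes led the sums at the 2 ages. In control worms the neuron markers also went opposite ways in the 2 sets. They summed to 65.8 to 69.1 against 80.7 to 89.0 CPM in A to C, and to 113 to 121 against 36.7 to 39.2 in D and E. The intestine markers other than asp-1 and mtl-2 summed to 40.4 to 67.2 against 7.35 to 8.85 in A to C and to 511 to 637 against 19.3 to 24.04 in D and E. The part of these shifts in the age changes of the cluster was not tested.

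Over the 20 libraries and 7175 genes, the level of nlp-39 was most like that of C54C8.12 (Pearson r = 0.997 on the log2(CPM + 0.5) scale). Y45G5AM.5 (r = 0.987), dct-8 (r = 0.986), cav-1 (r = 0.986) and cpg-24 (r = 0.985) came next. These points share the step from L4 to Day 13, on which nlp-39 and C54C8.12 were both picked. nlp-34 stood at rank 386 (r = 0.852). Within the 10 Day 13 libraries, with group means removed, the most like were sup-9 (r = 0.962), rpl-3 (r = 0.959), col-129 (r = 0.953), acbp-1 (r = 0.951) and C06A1.3 (r = 0.945), while C54C8.12 came at rank 830 (r = 0.816). These points share the split between letters A to C and D and E. For nlp-29 within Day 13 the 5 most like were C17E7.4 (r = 0.994), F16B4.4 (r = 0.993), his-63 (r = 0.993), R12E2.13 (r = 0.992) and Y54G11A.14 (r = 0.992), with nlp-30 at rank 27 (r = 0.985) and nlp-31 at rank 56 (r = 0.980). Over all 20 libraries nlp-29 was most like his-73 (r = 0.935), K01G5.8 (r = 0.925), C06E1.9 (r = 0.923), rsp-5 (r = 0.922) and Y39B6A.5 (r = 0.921).

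Genes beside the 2 loci were low or without counts. Of 6 annotated neighbours of the cluster 5 were in the table, and of 8 around nlp-39 and C54C8.12, 7 were, and none of these passed the filter on low counts in any comparison. Among the neighbours of the pair the highest group mean was 0.474 CPM, for C54C8.4 at control L4, and it was 0.0410 at control Day 13.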

How the data were processed

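Whole-worm 3SEQ libraries of 2 strains at 2 ages were analysed from the count table the authors deposited, which holds whole-number counts per gene without normalization. The submitters' processing notes name Bowtie 0.12.7; the build, annotation and strand setting of the counting are not given in the sources used here. The table also holds 1 column of values without a header, equal to control L4 A for all 19070 of its genes, which was not used. Groups came from the labels' titles. Gene positions came from the Ensembl WBcel235 annotation, in which 20878 of 21383 genes were placed. The members, gene lists and ratios were chosen with earlier results of these data known; all 8 members are named, and from each list up to 4 called genes with the largest change with age in control worms, to which nlp-32, the caenacins that fell and elt-3 were added after their values were seen.

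Counts were fitted in edgeR 4.0.16 (R 4.3.3) with its filter on low counts, TMM factors (0.648 to 2.21) and robust quasi-likelihood tests, in each comparison on the libraries of the 2 groups compared and for the interaction on all 20. P-values were adjusted over all genes tested (Benjamini-Hochberg), with a false discovery rate of 10% as the threshold, as in the study; its rank test was replaced because counts were at hand. Single genes were compared between strains on log2(CPM + 0.5) by exact two-sided permutation over all splits of 10 libraries. Scripts were tested on simulated counts. Alternatives were a block for the replicate letter, DESeq2 1.42.0, DESeq2 size factors, no filter, totals leaving out the top 3% of genes (641 genes), either set of letters, and each library left out in turn. The letter was taken to pair libraries where all same-letter correlations of deviations from the group means were over 0.1, which held for age in control worms (lowest 0.410) and strain at L4 (lowest 0.514), and not for age in overexpressing worms (0.0897) or strain at Day 13 (0.0557). Totals of 10.7 M to 42.3 M counts set the floor of 3 counts. Intervals and floors cover counting error only.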

Additional observations from a re-analysis of the deposited data

Results flagged for a closer look

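Among 28 groups of 5 libraries examined for the 8 genes, 1 held a value far from the rest. nlp-27 was at 802 CPM in overexpressing Day 13 E, and the next lowest of that group was at 2147 CPM, a gap of 0.844 of the group's range. In plain CPM E was still the lowest, at 1351, but the next lowest was at 2136 and the highest at 3092, a smaller part of the range. Chance alone sets apart about 1 in 20 such groups.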

How the results depend on the processing

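No member was called between strains at L4, against 3 with the replicate block, 4 with the DESeq2 Wald test and 4 with letters A to C alone. At Day 13 none was called, against 3 with A to C alone. For the difference of age changes none of the 6 cluster genes was called, against 1 with D and E alone (nlp-28, 3.51). Age calls in control worms numbered 1 to 3 with 1 library left out, and in overexpressing worms 3 to 4. The block changed no other call. In control worms nlp-31 was called higher with the top 3% left out of totals (1.34, adjusted p = 0.0529, edgeR), beside 3185 of 9063 genes. It was also called higher without control Day 13 E (1.27, adjusted p = 0.0737, edgeR), beside 1883 of 9376 genes. Signs turned as follows, as log2 changes. Age in control worms gave -0.86 for nlp-31 in D and E; 0.21 (no filter), 0.38 (top 3% left out of totals) and 0.0225 (A to C) for nlp-29; and 0.16 (top 3%) and 0.0270 (D and E) for nlp-28. With 1 library left out, the ranges were -0.32 to 0.60 for nlp-29, -0.79 to 0.54 for nlp-28 and -0.0195 to 0.80 for nlp-27. Age in overexpressing worms gave -0.27 for nlp-27 in A to C and a range of -0.13 to 0.62. nlp-30 was not called there with the top 3% left out (-0.93). At L4, nlp-27 was at -0.94 in D and E. At Day 13 in D and E the strain differences were 0.44 for nlp-39, 1.15 for nlp-31, 0.85 for nlp-30, 1.21 for nlp-29 and 1.61 for nlp-28, and in A to C -0.0025 for nlp-34 and -0.0945 for nlp-27. nlp-39 stood at 0.17 and nlp-28 at 0.17 with the top 3% left out, and nlp-28 at 0.10 with the block. C54C8.12 ranged from -0.26 to 0.30 and nlp-28 from -0.69 to 0.14 with 1 library left out. The difference of age changes in D and E was 2.14 for nlp-27, which was at 0.40 with the block and at -0.50 to 0.16 with 1 library left out. For nlp-39 and C54C8.12 the D and E fit returned 0.50 and 0.42, with SE of 680 and 551. Every L4 library of D and E had 0 counts of both genes, so these 2 values could not be estimated and their signs have no meaning. The cause of these turns was not tested.

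Over all genes, calls at L4 numbered 3, against 211 with the block, 465 by the DESeq2 Wald test, 2957 in A to C, 30 in D and E and 0 to 1 with 1 library left out. At Day 13 they numbered 1, against 0 with the block, 740 by DESeq2, 2 without the filter, 2 with the top 3% left out, 4094 in A to C, 0 in D and E and 0 to 662 with 1 library left out. Without the filter the age calls were 6341 and 6587, against 4135 and 4361. The interaction gave 138 calls in A to C and 20 in D and E, against 0. Permutation results kept their side of 0.05 with pseudocounts of 0.1 and 1. A planned count of GATA motifs in promoters was not run, since no genome sequence was used here. Depth limits nlp-39 and C54C8.12 at L4, where at most 11 counts were seen.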

Other observations

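The osmotic response shares the epidermis with the cluster. Of 9 listed genes 7 were tested, and 3 fell with age in each strain (median log2 change -0.61 in control and -0.50 in overexpressing worms, all genes 0.12 and 0.22), with none rising, beside 23.7% and 23.4% of all genes called lower. gpdh-1, which makes the osmolyte glycerol, had log2 changes of -2.89 ± 0.66 in control and -2.70 ± 0.52 in overexpressing worms (SE, adjusted p = 0.00582 and 0.00171, edgeR quasi-likelihood test). hmit-1.1, a myo-inositol transporter gene, had -2.86 ± 0.73 and -1.84 ± 0.43, and ptr-23 -1.68 ± 0.48 and -0.97 ± 0.38. Of the 4 TGF-β pathway genes listed upstream of cnc-2, dbl-1, the ligand, fell in control worms by 1.63 ± 0.40 (adjusted p = 0.00856, edgeR) while cnc-2 rose, and it was too low to test in overexpressing worms. No gene of either list was called between strains.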
